A study of Homo sapiens with 6 samples.

Results

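Genes that set how much oxidizable lipid a membrane holds, or that stop and repair its oxidation, were examined in H1975 cells. The 10 genes were GPX4, ACSL4, ACSL3, LPCAT3, AIFM2, GCH1, DHODH, PRDX3, PRDX6 and VKORC1L1. They were taken by symbol, and each was found among the 27216 rows of the table. H1975 is an established line of lung adenocarcinoma with mutant EGFR. The sample labels call its genotype WT and name no allele. Parental cells (Osimertinib, an EGFR tyrosine kinase inhibitor abbreviated Osi, for 0 h, 3 samples) were compared with adapted cells (Osi at 1000 nM for 72 h, 3 samples). The parental columns carry the name of the vehicle, DMSO, but no label says for how long these cells were held in it. Apoptotic cells had been rinsed off the treated cultures, so the 72 h samples hold the cells that remained. The labels also describe treatment of the RNA with RNase R, an enzyme that digests linear RNA. Nothing in the labels says that the 3 samples of a group came from separate cultures, and p-values then measure only the spread between these samples. In bulk RNA, fewer cells that express a gene and less of its RNA per cell cannot be told apart.

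Ferroptosis is a form of cell death driven by iron-dependent peroxidation of polyunsaturated fatty acids in membrane phospholipids. ACSL4 and LPCAT3 place these fatty acids into phospholipids, GPX4 reduces the resulting lipid hydroperoxides with glutathione, and AIFM2, GCH1, DHODH and VKORC1L1 belong to separate systems that supply radical-trapping molecules (reduced coenzyme Q, tetrahydrobiopterin and reduced vitamin K). The study was about ferritinophagy, the release of iron from ferritin by autophagy, in cells that outlast Osi, and free iron is what drives the peroxidation step.

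GPX4 is a selenoprotein: its catalytic residue, selenocysteine, is encoded by TGA, a codon that otherwise ends translation. The stretch around this codon is shown because the machinery that reads it through forms 1 of the gene groups described further on. In GENCODE v29 (GRCh38) the codon lies at chromosome 19 from 1105403 to 1105405 on the plus strand, in exon 3 of 7 of transcript ENST00000354171.12, and is codon 73 of the 197 in its coding sequence. GPX1, a related peroxidase of soluble hydroperoxides, is placed beside it. The capitals mark the selenocysteine codon in the DNA letters of the coding strand, each with 36 coding bases on either side, at chr19:1105367-1105441 (plus strand) and chr3:49358096-49358170 (minus strand).
GPX4: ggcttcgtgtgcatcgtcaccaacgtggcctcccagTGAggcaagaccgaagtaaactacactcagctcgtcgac
GPX1: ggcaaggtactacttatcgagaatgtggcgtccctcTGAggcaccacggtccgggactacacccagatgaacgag

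The deposited values are on a log2 scale and were taken as log2(FPKM + 1), although no source names the linear unit, with FPKM standing for fragments mapped to a transcript, adjusted for its length and the size of the library. Because the depth of the samples is unknown, errors given here come from the replicates alone. Of the 10 genes, 8 follow the pattern of nearly all rows, in which 2 to the power of the value, minus 1, is a number with 6 decimals. In GPX4 and PRDX3 the 3 adapted values break this pattern, and in both they returned to it when exactly 0.66 was subtracted on the log2 scale. In all, 147 rows of the table broke the pattern in 1 group, and 87 of these carried 0.66 in the adapted samples. For these 2 genes, values are given as deposited and with 0.66 subtracted, and which of the 2 is the measured level was not tested.

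Of the 10 genes, 6 differed between adapted and parental cells. Of all 12656 rows tested, 56.9% passed the same threshold (limma, adjusted p under 0.05), so the share among the 10 genes was near the background. GPX4, PRDX3, GCH1 and VKORC1L1 were higher in adapted cells (4 of 10, against 30.7% of all rows), and ACSL4 and DHODH were lower (2 of 10, against 26.2%). ACSL3, LPCAT3, AIFM2 and PRDX6 were not past the threshold. The 3 adapted values lay entirely above or below the 3 parental values in 7 of the 10 genes, against 66.3% of all rows tested. The median log2 fold change of the 10 genes was 0.21, beside 0.03 over all rows tested, and the median size of the change regardless of direction was 0.29 beside 0.31. With 3 samples against 3, a two-sided exact permutation test of a single gene cannot give a p below 0.1, the value found in each of the 7 genes without overlap.

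**Figure D1:**
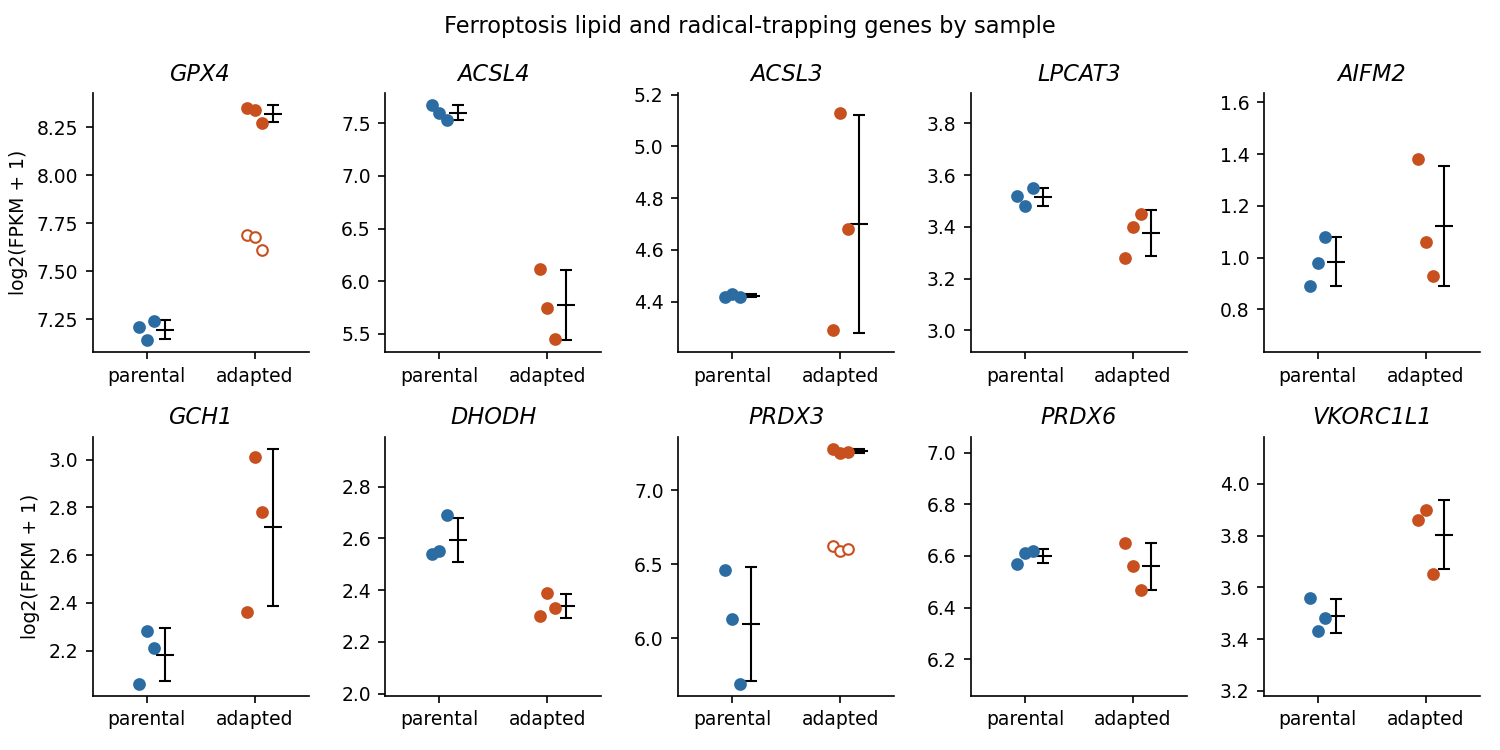
Values of the 10 genes in each sample as log2(FPKM + 1), with parental samples in blue and adapted samples in orange. Black bars give the mean ± SD (n = 3), each panel has its own scale, and open circles give the adapted values of GPX4 and PRDX3 with 0.66 subtracted. ACSL4 falls from between 7.53 and 7.67 to between 5.45 and 6.12, while the groups overlap for ACSL3, AIFM2 and PRDX6.

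Of the 3 enzymes that prepare fatty acids for membrane phospholipids and insert them, ACSL4 was lower in adapted cells, while ACSL3 and LPCAT3 were not past the threshold. ACSL4, the acyl-CoA synthetase that prefers arachidonic and adrenic acid (chromosome X from 109624244 to 109733403, minus strand, in GENCODE v29 on GRCh38, as for all positions given here), fell in every adapted sample. Its log2(FPKM + 1) was 7.67, 7.60 and 7.53 in the parental samples and 6.12, 5.75 and 5.45 in the adapted samples. Every adapted sample was lower than every parental sample, by more than the spread within either group. ACSL4 fell by 1.83 on the log2 scale (standard error 0.16, 95% interval -2.19 to -1.46, limma, adjusted p = 8.74e-05). On the linear scale, its mean went from 193 ± 9.71 to 54.7 ± 13.0 FPKM (SD, n = 3 each), 3.53-fold lower in adapted cells. In the size of its change ACSL4 stood above 97.3% of all rows tested, and its log2 fold change lay between -2.0 and -1.66 over all alternatives run. The row of KCNE5, a gene that overlaps one end of ACSL4 on the same strand, averaged 0.26 on the log2 scale over the 6 samples.

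ACSL3 (chromosome 2 from 222860934 to 222944639, plus strand) is the paralog that activates mainly monounsaturated fatty acids, which are hard to oxidize. Its values were 4.42, 4.43 and 4.42 in the parental samples and 4.29, 5.13 and 4.68 in the adapted samples. The parental samples hardly differed, while adapted replicate 1 lay below all of them and adapted replicates 2 and 3 above. The log2 fold change of 0.27 was not past the threshold (95% interval -0.16 to 0.71, limma, adjusted p = 0.244). Without adapted replicate 1 it was 0.48 (adjusted p = 0.011). FPKM, the assumed unit, is scaled to length. If the assumption holds, the levels of both synthetases can be set beside each other in each sample. ACSL4 was 9.91, 9.36 and 8.96 times as high as ACSL3 in FPKM in the parental samples, and 3.68, 1.55 and 1.74 times as high in the adapted samples. On this assumption ACSL4 stayed the higher of both transcripts in every sample, by a smaller margin in each adapted sample than in any parental sample.

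LPCAT3 (chromosome 12 from 6976186 to 7018510, minus strand), the acyltransferase that puts polyunsaturated chains into lysophospholipids, was 3.52, 3.48 and 3.55 in parental and 3.28, 3.40 and 3.45 in adapted cells. The groups did not overlap, but the difference of -0.14 was not past the threshold (95% interval -0.31 to 0.02, limma, adjusted p = 0.117). LPCAT3 overlaps EMG1 and C1S on the other strand. C1S went from 5.41 ± 0.10 to 4.52 ± 0.50 and EMG1 from 4.17 ± 0.02 to 3.94 ± 0.18 (SD, n = 3 each). Whether the counting used strand is not stated, and without strand the reads of the shared part cannot be told apart.

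Among the other 13 genes listed for acyl-CoA synthesis, desaturation and acyl transfer, 12 were tested, of which 8 rose and 4 fell. Over all rows tested, 30.7% rose and 26.2% fell. SCD, the main desaturase that makes monounsaturated fatty acids, fell by 0.93 on the log2 scale (6.38 ± 0.02 to 5.45 ± 0.25, SD, n = 3 each, limma, adjusted p = 5.28e-04). Its paralog SCD5 rose by 1.46 from a level of only 0.873 FPKM (adjusted p = 0.0014). ELOVL6, which elongates saturated and monounsaturated chains, fell by 0.85, and ACSL5 fell by 0.66. FADS1 fell by 0.20 and was only just past the threshold (limma, adjusted p = 0.0497). Its call was lost when the constants were subtracted in rows off the 6-decimal pattern (0.0501). LPCAT1, an acyltransferase that prefers saturated chains, rose by 1.07 (7.45 ± 0.01 to 8.51 ± 0.36, adjusted p = 0.00129), and FADS2, the desaturase at the entry of polyunsaturated fatty acid synthesis, rose by 0.49 (adjusted p = 0.0034). ACSL1 was 3.40, 3.48 and 3.29 in parental and 3.47, 4.52 and 4.40 in adapted cells. The groups overlapped through adapted replicate 1, and the call on its change of 0.74 (adjusted p = 0.0398) was lost when any sample other than adapted replicate 1 was left out (adjusted p 0.0769 to 0.126) and without the filter on low values (0.157). Without adapted replicate 1 the change was 1.07 (adjusted p = 2.15e-05). Of 4 genes of ether lipid synthesis, which supplies a further class of polyunsaturated phospholipids, 1 rose, GNPAT by 0.32 (adjusted p = 0.00277), and 3 were not past the threshold. Over all rows tested, 56.9% were past the threshold in either direction.

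The 10 listed genes of lipid oxidation include some that encode no oxidizing enzyme, such as PEBP1. Of the 10, 6 were tested, with 3 higher (PEBP1 among them) and 2 lower, beside 30.7% and 26.2% of all rows. One of the 3 higher genes, ALOX12, lost its call when most single samples were left out. ALOX5, a lipoxygenase of arachidonic acid, went from 5.42, 5.35 and 5.44 to 3.95, 3.87 and 3.93. All adapted samples were lower, and ALOX5 fell by 1.49 (limma, adjusted p = 3.59e-06). ALOXE3, which rearranges the hydroperoxides made by a skin lipoxygenase, fell by 0.90 (adjusted p = 5.41e-04). CYB5R1, a reductase that passes electrons to oxygen, rose by 0.66 (adjusted p = 8.78e-04), and PEBP1, which binds lipoxygenases of the ALOX15 family, rose by 0.62 (adjusted p = 1.10e-04). ALOX15 itself was below the filter at 0.32 in parental and 0.10 in adapted cells (means on the log2 scale), and ALOX15B was listed at 0 in all 6 samples. ALOX12 (1.35 ± 0.02 to 1.59 ± 0.02, adjusted p = 0.0294) kept its call without adapted replicate 1 (adjusted p = 0.0226) and lost it without any 1 of the other samples (0.053 to 0.101) or after quantile normalization (0.07).

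**Figure D2:**
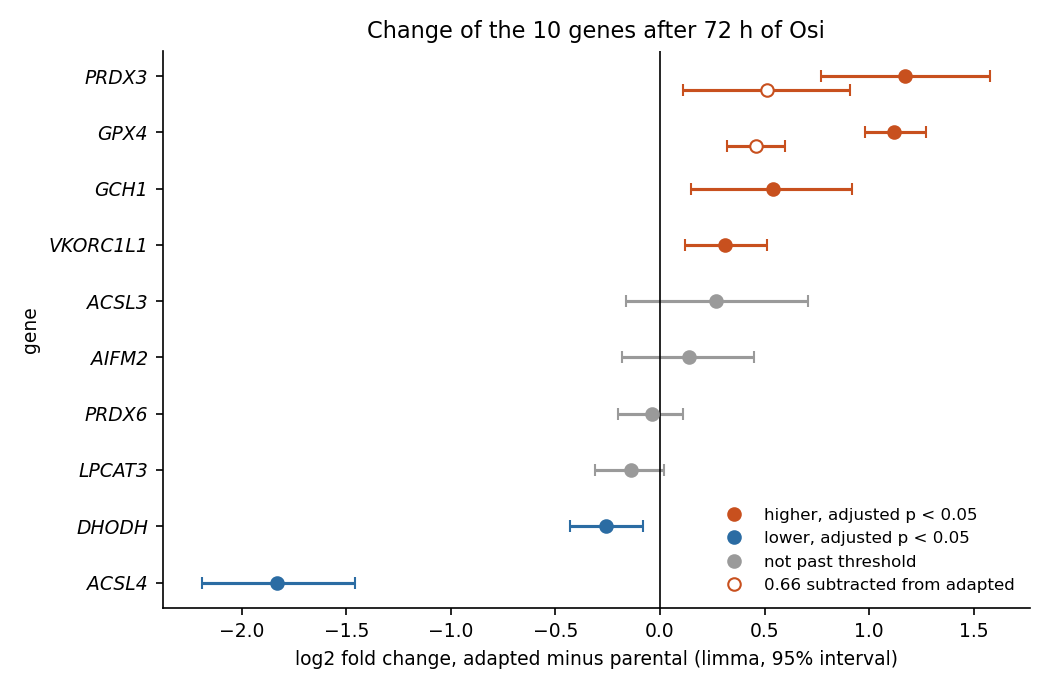
Log2 fold change of the 10 genes, adapted minus parental, with its 95% interval from limma (n = 3 samples a group). Filled orange and blue points are past an adjusted p of 0.05, gray points are not, and open points give GPX4 and PRDX3 with 0.66 subtracted from the adapted values. Both open points lie to the right of 0, at 0.46 for GPX4 and 0.51 for PRDX3.

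GPX4, the peroxidase that repairs phospholipid hydroperoxides inside the membrane, lies on chromosome 19 from 1103926 to 1106791 on the plus strand. As deposited, its log2(FPKM + 1) was 7.21, 7.14 and 7.24 in parental and 8.35, 8.34 and 8.27 in adapted samples. All adapted samples were higher, and the 3 samples of each group lay close together. The log2 fold change was 1.12 (standard error 0.06, 95% interval 0.98 to 1.27, limma, adjusted p = 1.35e-05). With 0.66 subtracted, the adapted values were 7.69, 7.68 and 7.61, still above every parental value. The log2 fold change was then 0.46 (95% interval 0.32 to 0.60, adjusted p = 5.92e-04), less than the constant itself. On the linear scale GPX4 rose from 146 ± 4.95 to 318 ± 9.19 FPKM (SD, n = 3 each) as deposited, and the adapted mean was 201 FPKM with the constant subtracted. Its level was above 98.5% of all rows tested. The row is a sum over the mitochondrial, cytosolic and nuclear forms, which the table does not separate. For GPX4 protein, a different measure from RNA, the paper reported no difference between parental and adapted cells.

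Genes that supply GPX4 with its substrate or its selenocysteine were counted next. Of 6 genes of cystine uptake and the glutathione cycle, none rose, 2 fell and 4 were not past the threshold (33.3% called, beside 56.9% of all rows). SLC7A11, the cystine carrier of system xc-, was 3.45, 3.36 and 3.25 in parental and 2.51, 2.46 and 2.35 in adapted cells. It was lower in all adapted samples and fell by 0.92 (limma, adjusted p = 1.06e-04). GSR, which regenerates reduced glutathione, was 5.78, 5.75 and 5.66 against 4.59, 4.56 and 4.61, and fell by 1.14 (adjusted p = 1.01e-05). Of 9 genes of selenium use and selenoprotein synthesis, 8 were tested, 2 rose, 2 fell and 4 were not past the threshold (50.0% called). SECISBP2, which binds the RNA element that lets the ribosome read TGA as selenocysteine, rose by 0.48 (3.79 ± 0.07 to 4.27 ± 0.08, SD, n = 3 each, adjusted p = 0.00105). LRP8, a receptor for the selenium carrier selenoprotein P, fell from 3.82, 3.76 and 3.76 to 3.33, 2.48 and 2.61, by 0.97 (adjusted p = 0.00551). SEPHS2, which makes selenophosphate, rose by 0.27 (adjusted p = 0.0175) and SEPSECS, which completes selenocysteinyl-tRNA, fell by 0.29 (adjusted p = 0.0436). SEPHS2 lost its call without any 1 of the 3 parental replicates (adjusted p 0.0559 to 0.0627), and SEPSECS lost it when parental replicate 1 (0.114) or 2 (0.155) or adapted replicate 1 (0.0704) or 3 (0.11) was left out, without the filter on low values (0.108) and under both rescalings to an equal sum (0.0559 and 0.0721).

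Of the other glutathione peroxidases, 3 of 5 were tested and 1 rose, 1 fell and 1 was not past the threshold (66.7% called, beside 56.9% of all rows). GPX1, shown above with GPX4, was at 7.30 ± 0.02 in parental and 7.18 ± 0.16 in adapted cells (log2 fold change -0.12, 95% interval -0.33 to 0.08, limma, adjusted p = 0.265). GPX2, the epithelial form, fell by 0.86 (adjusted p = 0.00549). GPX8, a peroxidase of the endoplasmic reticulum that carries cysteine in place of selenocysteine, rose by 0.61 (adjusted p = 2.20e-04).

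AIFM2 encodes FSP1, which reduces coenzyme Q and vitamin K at the plasma membrane (chromosome 10 from 70098223 to 70132934, minus strand). It was the lowest of the 10 genes, at 0.89, 0.98 and 1.08 in parental and 1.38, 1.06 and 0.93 in adapted cells on the log2 scale. The groups overlapped, and only adapted replicate 1 lay above all parental samples. The change of 0.14 was not past the threshold (95% interval -0.18 to 0.45, limma, adjusted p = 0.41). AIFM2 averaged just over the minimum of 1 for testing, in the lowest 1.2% of tested rows, and a change of this size was not detectable here. The row of its neighbour on the other strand, H2AFY2, averaged 0.03. FSP1 is held at the membrane by myristoylation, and both N-myristoyltransferases rose: NMT1 by 0.31 (4.89 ± 0.01 to 5.20 ± 0.03, SD, n = 3 each, adjusted p = 0.00176) and NMT2 by 1.19 (1.42 ± 0.15 to 2.61 ± 0.28, adjusted p = 5.25e-04).

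Coenzyme Q, the lipid that FSP1 and DHODH reduce, is made by a chain of enzymes of which all 13 listed genes were tested. Of these, 1 rose, 3 fell and 9 were not past the threshold (30.8% called, beside 56.9% of all rows), with a median log2 fold change of -0.09. COQ5, a methyltransferase of the ring, fell by 0.58 (limma, adjusted p = 4.62e-04), and COQ10B, a coenzyme Q-binding protein, fell by 0.46 (adjusted p = 0.00197). COQ4 rose by 0.24 (adjusted p = 0.0143), a call that did not hold without parental replicate 1 (0.0638) or parental replicate 2 (0.0523). The third gene that fell, PDSS1, which makes the side chain, had overlapping groups (adjusted p = 0.0349).

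DHODH, the enzyme of pyrimidine synthesis that reduces coenzyme Q in the inner mitochondrial membrane, lies on chromosome 16 from 72008588 to 72027664 on the plus strand. Its values were 2.54, 2.55 and 2.69 in parental and 2.30, 2.39 and 2.33 in adapted samples. Every adapted sample was lower than every parental sample. DHODH fell by 0.26 (standard error 0.07, 95% interval -0.43 to -0.08, limma, adjusted p = 0.0214). Its call did not hold without parental replicate 2 (adjusted p = 0.0548) or parental replicate 3 (0.0939). On the linear scale the means were 5.05 ± 0.341 and 4.06 ± 0.155 FPKM (SD, n = 3 each). Of the enzymes on either side of it in the pathway, CAD, which catalyzes the first steps, rose by 0.65 (adjusted p = 5.69e-04). UMPS, which catalyzes the last, was at 3.14 ± 0.15 and 3.16 ± 0.13 and was not past the threshold (log2 fold change 0.03, 95% interval -0.22 to 0.27, adjusted p = 0.847).

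GCH1 (chromosome 14 from 54842008 to 54902852, minus strand), the rate-limiting enzyme of tetrahydrobiopterin synthesis, was 2.06, 2.28 and 2.21 in parental and 2.36, 3.01 and 2.78 in adapted cells. All adapted samples were higher, but adapted replicate 1 stood only just above the highest parental sample. GCH1 rose by 0.54 (standard error 0.16, 95% interval 0.15 to 0.92, limma, adjusted p = 0.0252), or from 3.54 ± 0.353 to 5.69 ± 1.48 FPKM (SD, n = 3 each). The call did not hold without parental replicate 1 (adjusted p = 0.085) or 3 (0.0627), nor without adapted replicate 2 (0.068) or 3 (0.0732). It was also lost without the filter on low values (0.105). Without adapted replicate 1 the change was 0.71 (adjusted p = 7.11e-04).

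GCHFR, the protein that binds GCH1 and mediates its feedback inhibition by tetrahydrobiopterin, changed more than GCH1 and in the other direction. It was 3.98, 3.82 and 3.97 in parental and 2.26, 1.88 and 2.05 in adapted samples. All adapted samples were far below the parental ones, and GCHFR fell by 1.86 (standard error 0.11, limma, adjusted p = 1.70e-05). In FPKM, GCHFR was at 14.2 ± 0.898 beside 3.54 for GCH1 in parental cells, and at 3.20 ± 0.56 beside 5.69 in adapted cells. The order of both transcripts thus turned over, if the assumed unit, which is scaled to length, holds. Of the 7 genes listed beside GCH1 for synthesis and recycling of the cofactor, GCHFR among them, 2 rose, 3 fell and 2 were not past the threshold. This was 71.4% called, beside 56.9% of all rows. PTS, the second enzyme of the pathway, fell by 0.47 (adjusted p = 0.0449) and SPR, the last, rose by 0.28 (adjusted p = 0.0153), while PCBD2, a recycling enzyme, rose by 0.36 (adjusted p = 0.0394). These 3 calls depended on single samples. SPR lost it without parental replicate 2 (0.0632) or 3 (0.0639), PCBD2 without parental replicate 2 (0.113) or 3 (0.0638) or adapted replicate 2 (0.114) or 3 (0.0539), and PTS without any 1 sample (0.0634 to 0.136) other than adapted replicate 1 (0.00909). PCBD2 and PTS were also not past the threshold without the filter on low values (0.117 and 0.157), PCBD2 after quantile normalization (0.0798), and PTS after rescaling without the mitochondrially encoded genes (0.051).

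VKORC1L1 (chromosome 7 from 65873166 to 65959563, plus strand), a vitamin K epoxide reductase that yields radical-trapping vitamin K hydroquinone, was 3.56, 3.43 and 3.48 in parental and 3.86, 3.90 and 3.65 in adapted cells. All adapted samples were higher, adapted replicate 3 by the least. VKORC1L1 rose by 0.31 (standard error 0.08, 95% interval 0.12 to 0.51, limma, adjusted p = 0.0151), or from 10.2 ± 0.496 to 13.0 ± 1.25 FPKM (SD, n = 3 each). It lost the call without parental replicate 2 (adjusted p = 0.0634) or parental replicate 3 (0.0529). Its paralog VKORC1, the target of warfarin, was 3.93, 4.08 and 4.04 against 4.51, 4.30 and 4.07, with overlap and a change of 0.27 that was not past the threshold (95% interval 0.01 to 0.54, adjusted p = 0.0743). VKORC1 was past it without adapted replicate 3 (0.39, adjusted p = 0.0133) and after rescaling without the mitochondrially encoded genes (0.32, adjusted p = 0.0324). Of 4 genes of vitamin K reduction listed with VKORC1L1, 2 rose and 1 fell (75.0% called, beside 56.9% of all rows). GGCX, the carboxylase that consumes the hydroquinone, rose by 0.25 (adjusted p = 0.0107). NQO1, a quinone reductase and NRF2 target, fell from 6.53, 6.51 and 6.50 to 5.96, 5.43 and 5.16, by 1.0 (adjusted p = 0.00277).

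The sterol 7-dehydrocholesterol traps lipid radicals as well. Of the 4 listed enzymes around it, 3 rose and none fell (75.0% called, beside 56.9% of all rows). SC5D, which makes it, rose by 1.14 (limma, adjusted p = 0.0029, from 3.79 ± 0.10 to 4.92 ± 0.46, SD, n = 3 each) and DHCR7, which consumes it, by 0.50 (5.03 ± 0.03 to 5.54 ± 0.09, adjusted p = 5.09e-04).

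**Figure D3:**
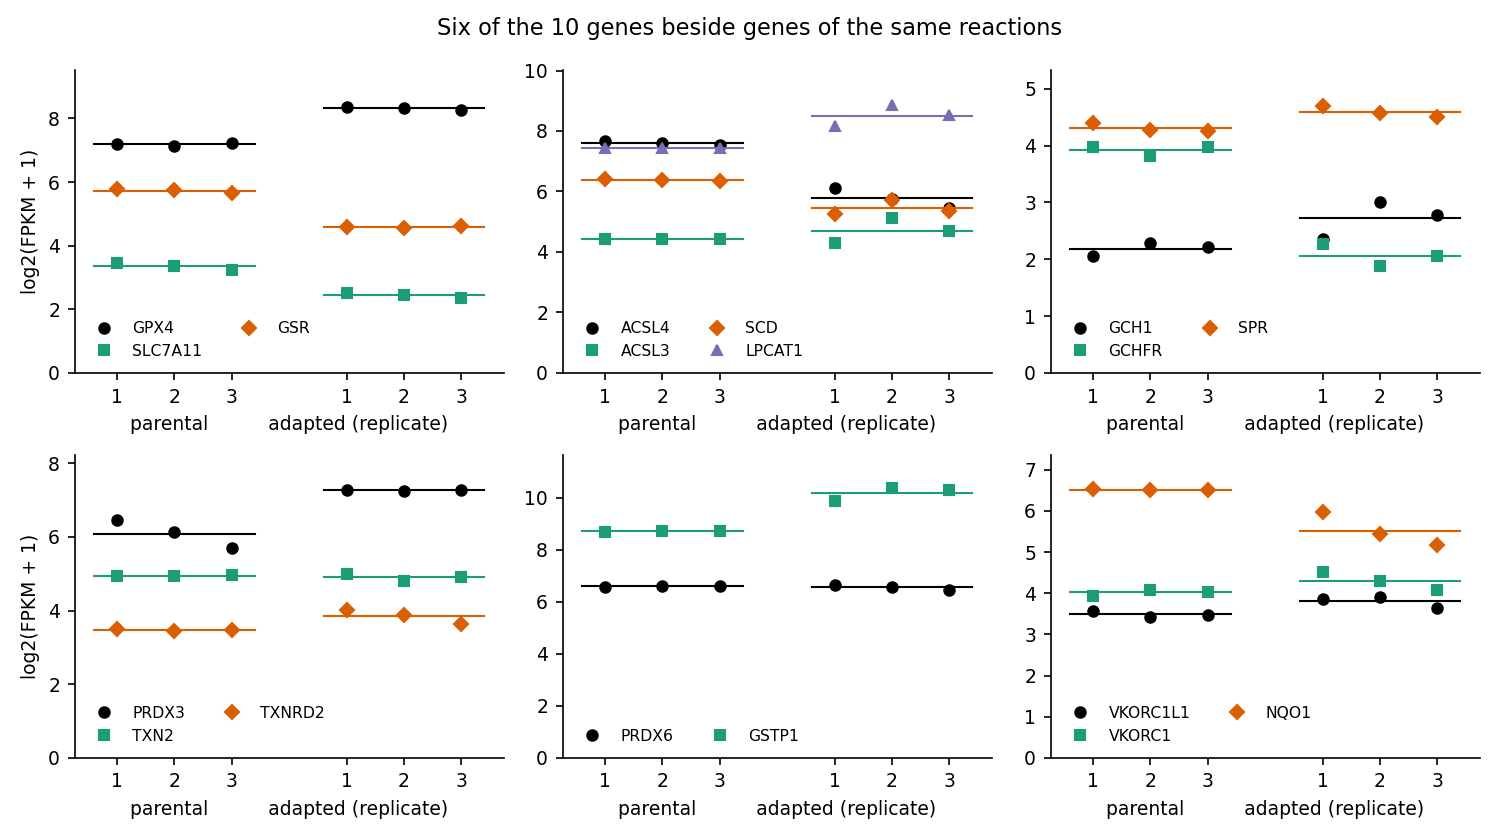
Values as log2(FPKM + 1) in each of the 3 parental and 3 adapted samples for 6 of the 10 genes (black circles) beside genes of the same reactions (colored marks), with a line at each group mean and all values as deposited. GCH1 and GCHFR cross between the groups, GPX4 rises as deposited while SLC7A11 and GSR fall, and PRDX6 stays near 6.6 while GSTP1 rises by 1.48.

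PRDX3, the peroxiredoxin of mitochondria (chromosome 10 from 119167703 to 119178833, minus strand), varied more between parental samples than any other of the 10 genes. As deposited, it was 6.46, 6.13 and 5.69 in parental and 7.28, 7.25 and 7.26 in adapted samples. The parental samples spread over a wide range, while the adapted samples were nearly equal. The parental SD of 0.38 was above that of 99.3% of the rows tested, and the adapted SD of 0.02 above that of 1.3%, while the median SD over these rows was larger in adapted (0.129) than in parental samples (0.0576). The log2 fold change was 1.17 (standard error 0.17, 95% interval 0.77 to 1.58, limma, adjusted p = 0.00102). With 0.66 subtracted, the adapted values were 6.62, 6.59 and 6.60, above parental replicate 1 by only a little. The log2 fold change was then 0.51 (95% interval 0.11 to 0.91, adjusted p = 0.0375). In FPKM the means were 68.9 ± 18.1 and 153 ± 1.81 (SD, n = 3 each), and 96.3 for adapted cells with the constant subtracted. PRDX3 has 4 annotated processed pseudogenes, none of which has a row of its own in the table, so reads shared with them cannot be told apart.

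The reducing partners of PRDX3 were examined beside it, with no test of a difference in change between them. TXN2, the mitochondrial thioredoxin that reduces PRDX3, was 4.95, 4.93 and 4.96 in parental and 5.0, 4.81 and 4.91 in adapted cells (log2 fold change -0.04, 95% interval -0.19 to 0.12, limma, adjusted p = 0.653). Its direction reversed when the samples were rescaled without the mitochondrially encoded genes (0.01) and without adapted replicate 2 (0.01). TXNRD2, the mitochondrial thioredoxin reductase, rose by 0.37 (3.47 ± 0.04 to 3.84 ± 0.19, SD, n = 3 each, adjusted p = 0.016). The call did not hold when parental replicate 2 (0.0574), parental replicate 3 (0.0529) or adapted replicate 2 (0.0504) was left out, or without the filter on low values (0.0596). The cytosolic counterparts were lower: TXN fell by 0.79 (adjusted p = 0.00482), TXNRD1 by 1.17 on the same scale (8.44 ± 0.03 to 7.28 ± 0.21, adjusted p = 1.19e-04), and SRXN1, which restores overoxidized peroxiredoxins, by 0.38 (adjusted p = 0.00727).

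PRDX6 (chromosome 1 from 173477266 to 173488807, plus strand), which reduces phospholipid hydroperoxides in the cytosol and also takes part in selenium delivery, was 6.57, 6.61 and 6.62 in parental and 6.65, 6.56 and 6.47 in adapted cells. The groups overlapped, with adapted replicate 1 highest and adapted replicate 3 lowest of all samples. The change was -0.04 (95% interval -0.20 to 0.11, limma, adjusted p = 0.598), and its sign turned when the samples were rescaled without the mitochondrially encoded genes (0.01) and without adapted replicate 3 (0.0035). The interval does not show that the levels were equal. In FPKM PRDX6 was at 96.2 ± 1.74 and 93.5 ± 5.95 (SD, n = 3 each). GSTP1, the glutathione transferase that regenerates PRDX6, rose from 8.67, 8.71 and 8.74 to 9.88, 10.39 and 10.30, by 1.48 (adjusted p = 1.20e-04). The other peroxiredoxins, PRDX1, PRDX2, PRDX4 and PRDX5, had log2 fold changes from -0.12 to 0.19, none past the threshold. Of the 10 genes listed for peroxiredoxins and thioredoxins, 2 rose, 3 fell and 5 were not past it (50.0% called, beside 56.9% of all rows).

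**Figure D4:**
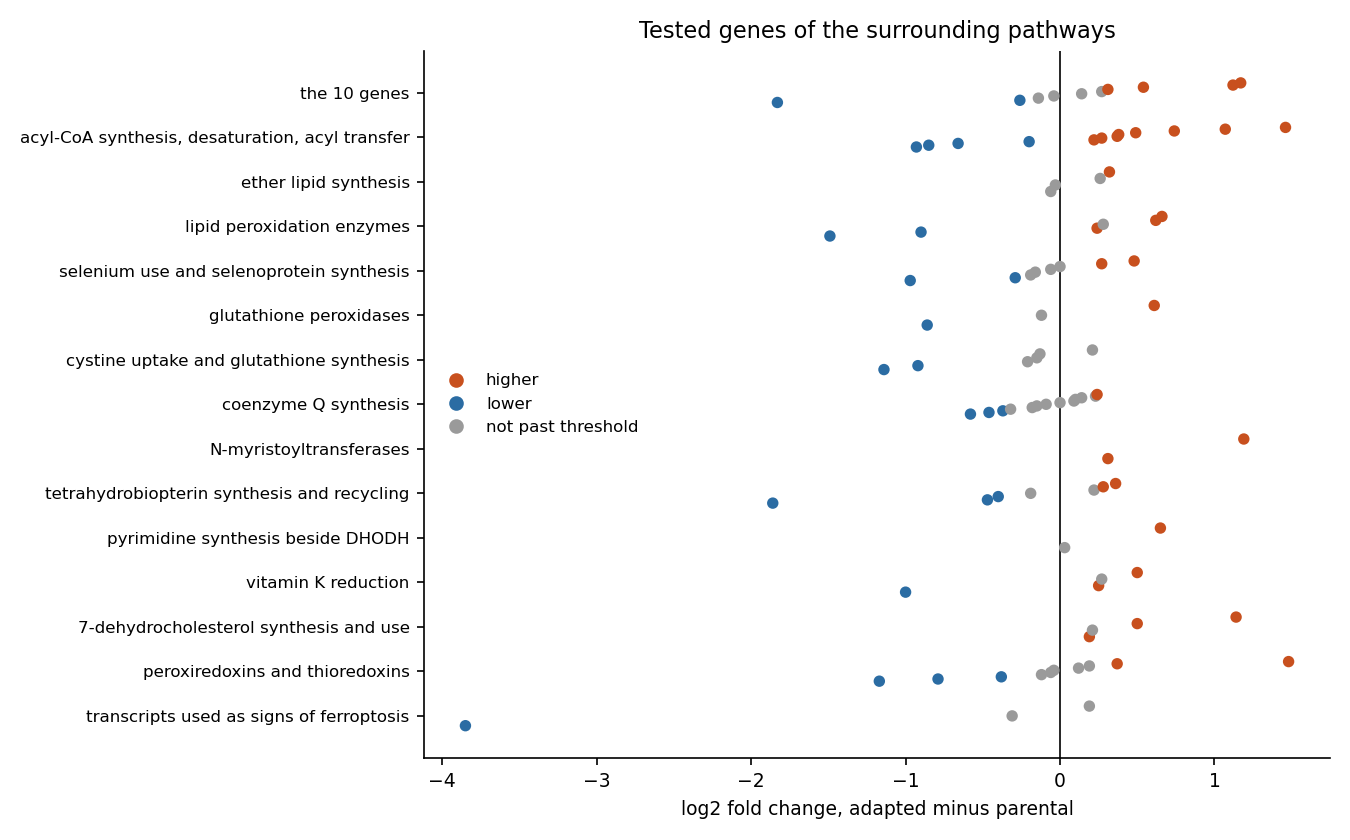
Log2 fold change, adapted minus parental, of each tested gene in the 10 genes and in the 14 lists around them, with 1 point a gene, spread vertically within a list by rank for legibility. Orange points were higher, blue points lower and gray points not past an adjusted p of 0.05 (limma). The acyl-CoA list has no gray point, although FADS1 in it is only just past the threshold (adjusted p = 0.0497). PTGS2, at -3.85, is the farthest to the left.

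Over the 14 surrounding lists together, 84 of 92 genes were tested. Of these, 28 rose and 22 fell (50 genes), a share of 59.5% beside 56.9% of all rows, and the median log2 fold change was 0.01. None of the 92 genes had values off the 6-decimal pattern. Among 3 transcripts that are used as signs of ferroptosis, none rose and 1 fell (33.3% called). PTGS2, which encodes the cyclooxygenase COX-2 and is also a target of growth factor and inflammatory signaling, was 5.77, 5.78 and 5.70 in parental and 2.42, 1.71 and 1.57 in adapted samples. It was far lower in all adapted samples and fell by 3.85 (standard error 0.20, limma, adjusted p = 1.14e-05), or from 52.9 ± 1.51 to 2.86 ± 1.29 FPKM (SD, n = 3 each). By quantitative PCR, the paper reported no difference in PTGS2 mRNA between parental and adapted cells. The source of this disagreement was not tested. CHAC1, a glutathione-degrading enzyme, changed by 0.19 (95% interval -0.04 to 0.42, adjusted p = 0.142) and TFRC, the transferrin receptor, by -0.31 (-0.67 to 0.05, adjusted p = 0.123).

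**Figure D5:**
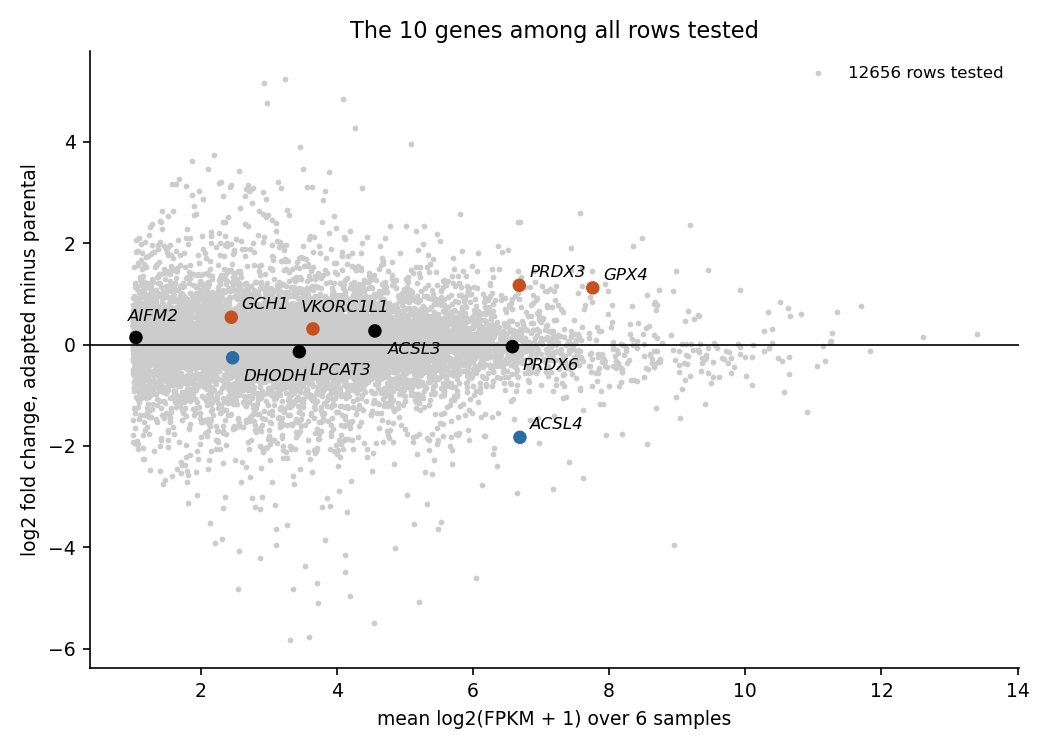
Log2 fold change, adapted minus parental, against the mean log2(FPKM + 1) over the 6 samples for all 12656 rows tested (gray), with the 10 genes marked as higher (orange), lower (blue) or not past the threshold (black). All values are as deposited, which places GPX4 at 1.12 and PRDX3 at 1.17, whereas with 0.66 subtracted they would stand at 0.46 and 0.51, near GCH1 at 0.54. ACSL4, at -1.83, is the lowest of the 10 genes.

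Markers of the labelled cell type were checked in the same table. The 6 epithelial markers summed to between 3710 and 3742 FPKM in parental and between 3491 and 3788 FPKM in adapted samples. Within this sum, KRT7 rose by 1.07, KRT19, KRT18 and KRT8 fell by 0.75, 0.57 and 0.28 on the log2 scale, and EPCAM and CDH1 were not past the threshold (limma). NKX2-1 and NAPSA, markers of the lung epithelial lineage, were expressed, with NKX2-1 higher by 0.47 and NAPSA lower (log2 fold change -0.81) in adapted cells, while SFTPB and SFTPC were below 1 on the log2 scale. The 5 leukocyte markers summed to between 73.9 and 76.3 FPKM in parental and between 14.6 and 29.6 FPKM in adapted samples, nearly all from CD68. PTPRC and CD3E were at 0 or close to it and CD68, a lysosomal protein that epithelial lines also express, was the 1 that passed the filter (log2 fold change -1.85). The 3 endothelial markers summed to between 1.13 and 1.86 FPKM in parental and between 1.42 and 3.47 FPKM in adapted samples, and none passed the filter. Each moved without overlap, in different directions. From parental to adapted means, PECAM1 fell from 1.35 to 0.0634 FPKM, while CDH5 rose from 0.156 to 2.39 and VWF from 0.0202 to 0.181 FPKM. The 5 fibroblast markers summed to between 3.0 and 3.14 FPKM in parental and between 8.11 and 8.89 FPKM in adapted samples, without overlap. Most of this sum was COL1A1, which rose by 1.12 (limma, adjusted p = 7.80e-05), while the other 4 were below the filter. Their part in the results was not tested. Adapted replicate 1 stood somewhat apart, with Pearson correlations across all rows (which are not independent) of 0.991 to the other adapted samples, which correlated at 0.996 with each other.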

How the data were processed

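RNA sequencing of 3 parental and 3 adapted H1975 samples was analyzed. The authors deposited 1 table of log2 values, 1 column per sample, and their unit is not named. In 27069 of 27216 rows 2 to the power of the value, minus 1, has 6 decimals, so the values are a log2 of a linear unit plus 1. That this unit is FPKM was assumed. Processing notes of the submitters name Bowtie2 2.1.0, STAR, edgeR and hg38 without their roles, and the paper's methods name DESeq2. Those tests need counts, so the log2 values were fitted with limma 3.58.1 in R 4.3.3 instead (lmFit, then eBayes with its trend option), unpaired, over rows with a mean of at least 1 (12656 rows), with Benjamini-Hochberg adjustment over all of them and a threshold of 0.05. Fold changes on this scale understate those of low genes. Columns were matched to samples by group and replicate number. Depth is unknown and no counting error is given. In rows off the 6-decimal pattern, constants from 0.01 to 0.99 in steps of 0.01 were tried, and exactly 1 fitted in each. limma and this search were tested on simulated data. Permutation tests used scipy 1.17.1 in Python 3.11. Positions and coding bases are from GENCODE v29 (GRCh38, the build that hg38 names). PEDS1 was matched to its older symbol TMEM189.

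The 10 genes and the lists around them were chosen with earlier results of these data known. From each list, at most 3 called genes with the largest rise and 3 with the largest fall were named, if their groups did not overlap, and in addition PTGS2, VKORC1, TXN2, TXNRD2, ACSL1 and SCD. Some genes that this rule names are not reported here. FADS1, PDSS1, CHAC1, TFRC, GPX1, UMPS, ALOX15, ALOX15B, PRDX1, PRDX2, PRDX4 and PRDX5 were named outside this rule after their values were seen. The fit was repeated after changing 1 choice at a time. The pseudocount was set to 0.1, and the filter was removed or raised to a mean of 3. Samples were quantile normalized, rescaled to an equal sum (all genes, or all but the mitochondrially encoded ones) or median-centred. eBayes was run with no trend and with its robust option. A replicate block was added. Single samples, rows named NewGene_ and rows off the pattern were left out, constants were subtracted, and thresholds of 0.01 and of a log2 fold change of 1 were applied.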

Additional observations from a re-analysis of the deposited data

How the results depend on the processing

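Directions of GPX4, ACSL4, ACSL3, LPCAT3, AIFM2, GCH1, DHODH, PRDX3 and VKORC1L1 were kept under every alternative in which the gene was fitted. The calls of ACSL4 (log2 fold change -2.0 to -1.66), GPX4 (0.46 to 1.17) and PRDX3 (0.51 to 1.35) were kept wherever these genes were fitted. PRDX6 reversed to 0.00521 and TXN2 to 0.0106 when samples were rescaled to an equal sum of all but the mitochondrially encoded genes. With single samples left out, PRDX6 lay between -0.0875 and 0.0035 (without adapted replicate 3) and TXN2 between -0.0819 and 0.0109 (without adapted replicate 2).

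Of the 10 genes, 6 were called, 4 higher and 2 lower. With single samples left out, 3 to 7 were called (2 to 5 higher, 1 to 2 lower), fewest without parental replicate 3. At an adjusted p under 0.01, and likewise with a log2 fold change of at least 1, 3 were called (2 higher, 1 lower). The 2 higher genes were GPX4 and PRDX3 as deposited. With 0.66 subtracted, their log2 fold changes were 0.46 and 0.51, both below 1. GPX4 then stayed under 0.01 (limma, adjusted p = 5.92e-04), and PRDX3 did not (0.0375). With rows off the 6-decimal pattern left out, which takes away GPX4 and PRDX3, 2 higher genes were called, and a filter at a mean of 3, which takes away AIFM2, GCH1 and DHODH, left 1 lower gene. Of the genes in the surrounding lists, 50 were called (28 higher, 22 lower), 35 to 58 when one sample was left out (17 to 29 higher, 18 to 29 lower). At an adjusted p under 0.01, 16 were higher, and with a log2 fold change of at least 1, 10 were called, 5 higher and 5 lower. Over all rows, 7202 were called, 5763 to 8370 when one sample was left out (3139 to 4474 higher, 2611 to 3896 lower), 4532 with the filter at a mean of 3 (2357 higher, 2175 lower, of 7693 rows tested) and 1328 with a log2 fold change of at least 1 (672 and 656). The cause of other losses was not tested. The share of calls that were higher was 54.0% as deposited and 51.1% to 59.1% under other scalings. Same-numbered samples did not deviate together (correlations -0.05 to -0.02) nor correlate best with their own number, so they share only a number. With the replicate block 6 of the 10 genes, 45 listed genes and 6761 rows were called, and ALOX12 (adjusted p = 0.0797) and PCBD2 (0.0709) lost their calls. No read depth is known, which limits what can be said of AIFM2, near the filter.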
